A study of Mus musculus with 20 samples.

Results

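The effect of a high-fat diet (HFD) on the RNA bound to tanycyte ribosomes was read from 7 of the 20 libraries of the series. They are the immunoprecipitations of control mice, 4 from pools fed HFD and 3 from pools fed normal chow diet (NCD), and were chosen by the diet and fraction that the sample labels give. The comparison was described across genes, and 13465 of the 13721 genes that the authors list for it had enough counts to be tested. The study asked what happens in tanycytes when their insulin receptor is deleted and when mice are insulin resistant on HFD. Besides these libraries the series holds the inputs of the same 7 pools and the immunoprecipitations and inputs of 3 pools of NCD-fed IRΔTan mice, which lack the insulin receptor in tanycytes.

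Mice of both diets were IR wt/wt and carried a single copy of a Cre-dependent transgene at Rosa26 that encodes the ribosomal protein L10a fused to green fluorescent protein. All of them, controls included, received AAV-Dio2-Cre into a lateral ventricle at 12 weeks of age, and the arcuate nucleus with the median eminence was dissected 4 weeks later. The genotype field of the labels calls the same samples IRmKate2. HFD, with 60% of its calories from fat against 9% in chow, was given from about 4 weeks of age, and lasted 8 weeks in the sample labels but 12 weeks in the published protocol. A pool held tissue of several mice, males and females together, 5 to 7 by the series design and 4 to 7 by the extraction protocol, so that animals could not be told apart within a library. Cre was expressed from the Dio2 promoter, and the tag therefore marks cells in which that promoter was active after the virus had reached them, whether or not they were tanycytes.

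Tanycytes are elongated glial cells that line the floor and lower walls of the third ventricle and send processes into the arcuate nucleus and the median eminence. They carry hormones and nutrients between blood, cerebrospinal fluid and neurons, convert thyroxine to its active form with the type 2 deiodinase encoded by Dio2, and keep properties of neural progenitors. In translating ribosome affinity purification (TRAP), beads coated with antibodies to the tag retain tagged ribosomes with the RNA on them, and RNA of the untouched lysate is sequenced beside it as input. RNA of neighbouring cells that sticks to the beads is part of every such immunoprecipitation.

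The HFD immunoprecipitations held 29469000 to 34715000 counts and the NCD ones 42868000 to 48625000, rounded to 5 significant digits. A single non-coding entry, CT010467.1, took 8.11% to 8.91% of the counts on HFD and 15.5% to 16.3% on NCD. In the inputs the order was the reverse, 3.805% to 5.498% on HFD and 1.368% to 1.521% on NCD. Genes of the mitochondrial genome took 0.0502% to 0.129% of the immunoprecipitation counts on HFD and 0.256% to 0.455% on NCD. The first principal component of log2 CPM, the read count of a gene scaled to a common library size, held 55.2% of the variance and separated the diets, with HFD pool 2 at -53.7, the other HFD pools at -27.6 to -4.97 and the NCD pools at 27.1 to 53.1. HFD pool 2 stood apart from its group in several genes below, and counts without it are given for the whole comparison and for some of the lists. Depth, the share of CT010467.1 and diet moved together, and their part in the results was not tested. The scaling used TMM factors, which set the bulk of genes equal between libraries, separately for immunoprecipitations and inputs. Sex markers also differed with diet in the inputs. There Xist, an RNA of female cells, had 6.59 to 12.21 CPM by library totals on HFD and 2.964 to 6.093 on NCD. Of 4 Y-linked genes 3 were lower on HFD in the input (median log2 fold change -0.44). In the immunoprecipitation 0 of them were called, and Xist overlapped between the diets. The part of sex balance in the results was examined only by a covariate of Y-linked counts, given below.

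On HFD, 5174 of 13465 genes (38.4%) had changed in the immunoprecipitation, 2850 of them higher (21.2%) and 2324 lower (17.3%), at an adjusted P under 0.05 from edgeR's quasi-likelihood test with Benjamini–Hochberg adjustment. Counts for the gene lists below are to be read beside these shares of all genes. Genes of the neuronal cytoskeleton and synapse, of glycolysis and of protein folding were among those that rose. Genes that mark tanycytes and ependymal cells, genes of the cytosolic ribosome and genes encoded by mitochondria were among those that fell. The change reached 1 on the log2 scale, a 2-fold change, for 488 higher (3.62%) and 298 lower (2.21%) genes, 5.84% of all together. The 4 HFD pools lay wholly above or wholly below the 3 NCD pools for 6112 genes (45.4%), above for 24.3% and below for 21.1% of all genes, and the median log2 fold change of all genes was -0.0044. Without HFD pool 2 there were 2216 higher and 1973 lower genes, and 2906 genes were called in each of the 7 fits that left out 1 pool. Pools are the replicates throughout, and P values measure the spread between pools.

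Values of 3 genes are given first, Dio2 as a marker of tanycytes and Sat1 and Sptan1 for the size of their change with diet. Dio2 (GRCm38 chromosome 12, 90724552 to 90738438, minus strand), whose promoter also drives the Cre, had 193, 170.2 and 152 CPM in NCD pools 1 to 3 and 76.3, 50.8, 66.8 and 89.0 CPM in HFD pools 1 to 4. Every HFD pool was below every NCD pool, and the log2 fold change was -1.28 (SE 0.18, adjusted P = 0.0020 by edgeR). In the input Dio2 fell by 0.77 (SE 0.11, edgeR adjusted P = 0.00047), and its drops in the 2 fractions were not shown to differ (adjusted P of the difference 0.077). In the IRΔTan libraries, which are of NCD-fed mice outside both control groups, Dio2 was enriched in the immunoprecipitation over the input by 1.68 on the log2 scale.

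Sat1 (chromosome X, 155213132 to 155216449, minus strand) encodes the acetyltransferase that starts the breakdown of spermidine and spermine. It had 133, 224 and 152 CPM in the NCD pools and 68.6, 24.9, 52.1 and 43.0 CPM in the HFD pools, again with no overlap, and fell by 1.85 on the log2 scale (SE 0.30, edgeR adjusted P = 0.0027). Its log2 fold change in the input was -0.36 (SE 0.09), smaller than in the immunoprecipitation (adjusted P of the difference 0.0037). Sptan1 (chromosome 2, 29965560 to 30031451, plus strand) encodes the non-erythroid alpha spectrin of the membrane skeleton. In this gene the NCD pools had 149, 122 and 118 CPM and the HFD pools 666, 1325, 741 and 735 CPM. No pools overlapped, and the gene rose by 2.74 on the log2 scale (SE 0.25, edgeR adjusted P = 0.0016). HFD pool 2 was far above the other HFD pools, and without it the log2 fold change was 2.43. Sptan1 did not pass the test in the input (0.04, SE 0.05) and was depleted in the IRΔTan pulldown, by 1.92 on the log2 scale.

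**Figure D1:**
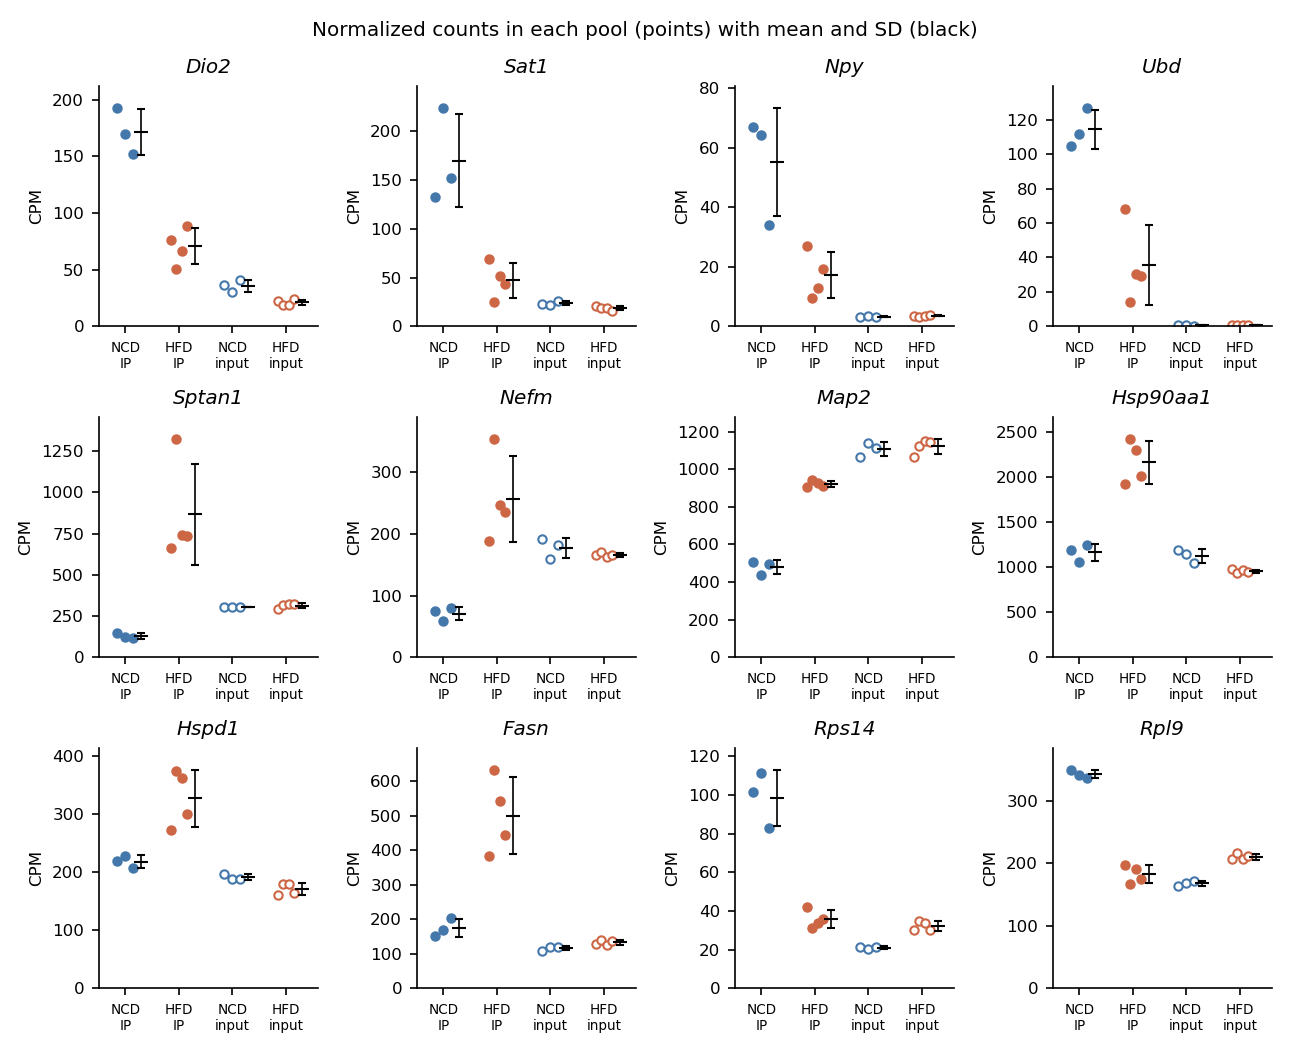
Normalized counts (CPM, linear axes from 0) of 12 genes in each pool of NCD (blue) and HFD (orange) controls, filled points for immunoprecipitations and open points for inputs, with the mean and SD of each group in black; the 2 fractions were scaled separately. In the immunoprecipitation every HFD pool lay below every NCD pool for Dio2, Sat1, Npy, Ubd, Rps14 and Rpl9 and above for Sptan1, Nefm, Map2, Hsp90aa1, Hspd1 and Fasn.

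Genes were next sorted by their enrichment in the immunoprecipitation over the input of the 3 IRΔTan pools, since these 6 libraries share no sample with either diet group. The IRΔTan mice were NCD-fed, however. CT010467.1 took 15.6% to 18.9% of their immunoprecipitation counts, near its share in NCD controls and above that in HFD controls. The order is thus that of NCD pulldowns, and whether HFD pulldowns would give the same order was not tested. The median diet change followed that order. Of the 228 genes enriched by 4 or more on the log2 scale, 117 fell on HFD and 0 rose, with a median log2 fold change of -0.75. Of 221 genes enriched by 3 to 4, 89 fell and 0 rose (median -0.67), and of 485 enriched by 2 to 3, 183 fell and 1 rose (median -0.64). Among the 1238 genes depleted by 1 to 2, 591 rose (47.7%) and 32 fell (2.58%), with a median of 0.50. In the most depleted class, 224 genes at -2 or less, 58 rose (25.9%) and 20 fell (8.93%), so that the shares called did not follow the order at that end while the median (0.52) did. Genes of that class that fell included mt-Co1 (enrichment -4.40), mt-Nd1 (-3.73), Lrrc17 (-3.64) and Snhg11 (-2.37). The order of the medians held in direction after a trend with transcript length had been removed from every library. There the medians ran from -0.62 in the most enriched class to 0.46 in the most depleted. In the input the medians were small and of the opposite sign, 0.14 for the most enriched class and -0.12 for the most depleted.

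In bulk libraries like these, fewer cells of a type, less RNA per cell and a larger share of RNA from other cells cannot be told apart. The summed level of the 33 tanycyte markers was 5186 to 6156 CPM on NCD and 2668 to 4498 CPM on HFD, and that of 21 neuron markers was 6568 to 7942 and 11730 to 15500 CPM. No marker of these lists was at 0 in all immunoprecipitations. The sums of neuron and tanycyte markers did not overlap between diets, and their part in the changes of other genes was not tested.

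**Figure D2:**
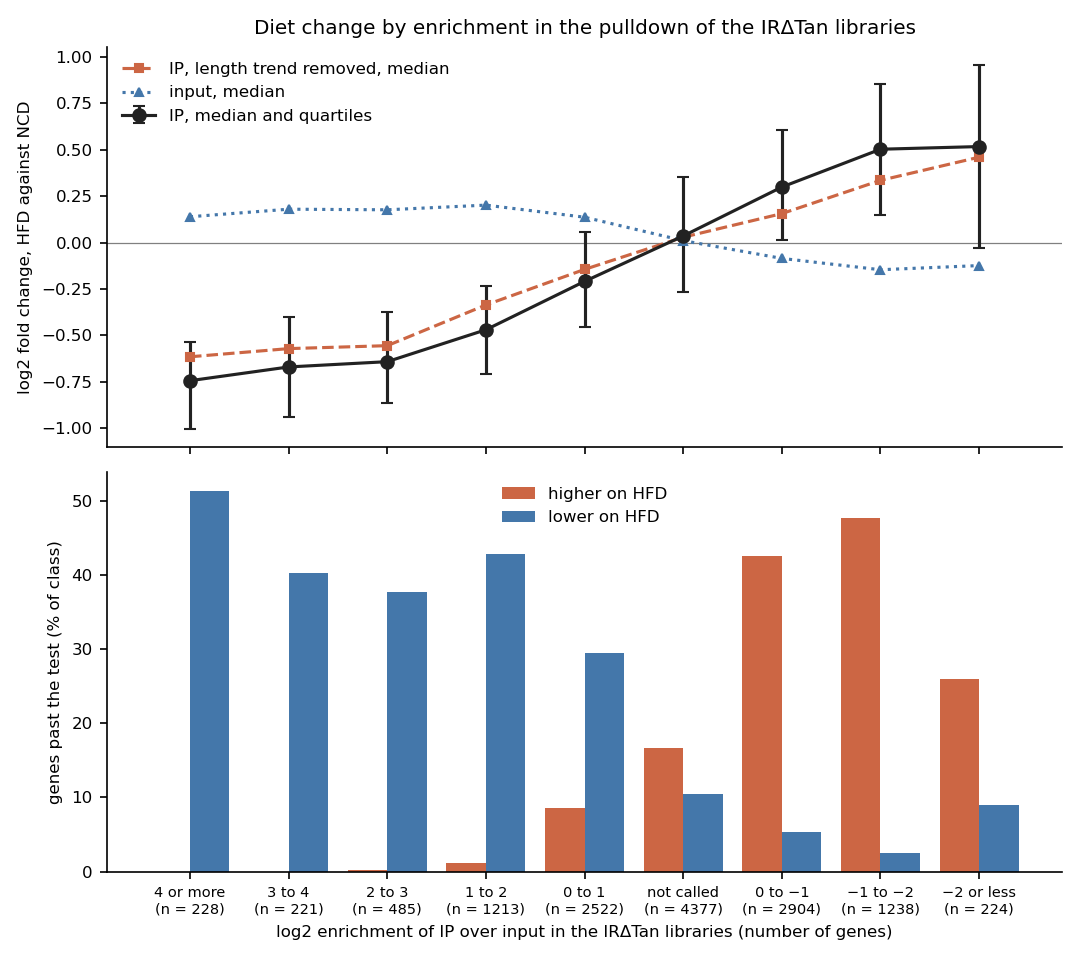
Diet change of genes grouped by their log2 enrichment in the IRΔTan pulldown, from the most enriched class on the left to the most depleted on the right. Upper axis, median log2 fold change of HFD against NCD in the immunoprecipitation with its quartiles, the same with the length trend removed, and in the input; lower axis, percentage of each class past the test in each direction. The median ran from -0.75 to 0.52 in the immunoprecipitation and from 0.14 to -0.12 in the input.

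Tanycyte genes fell unevenly. Of 31 tested tanycyte markers 10 fell (32.3%) and 3 rose, among them Vcan and Penk, with a median log2 fold change of -0.45. Their median enrichment in the IRΔTan pulldown was 2.32. Of all genes enriched there by 2 to 3, 37.7% fell (median -0.64), so the fall was not particular to these markers. Between 6 of the 31 markers (without NCD pool 1) and 16 (without HFD pool 1) were called when 1 pool was left out. The lower ones included Lhx2, the LIM-homeobox factor that sets tanycyte identity, with 104, 108 and 102 CPM in the NCD pools and 75.8, 46.3, 47.9 and 72.4 CPM in the HFD pools (log2 fold change -0.79, SE 0.18). Lhx2 was higher in the input on HFD (0.33, adjusted P = 0.019 by edgeR), so that both fractions changed in opposite directions, and the difference passed the test (adjusted P = 0.0013). Fabp7, the brain fatty acid-binding protein of radial glia, fell by 1.11, the secreted Wnt antagonist gene Frzb by 0.88 and Fgf10, a growth factor of median eminence tanycytes, by 0.71. Crym, a cytosolic protein that binds thyroid hormone, fell by 1.27, although its call was lost with the length trend removed (adjusted P = 0.059).

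Rax and Vim, which also mark tanycytes, did not pass the test. Rax, their homeobox factor, had 16.3, 14.4 and 12.7 CPM on NCD and 14.7, 8.94, 5.72 and 15.4 CPM on HFD. The intermediate filament gene Vim had 298, 505 and 416 CPM against 445, 106, 317 and 192 CPM. In both the groups overlapped, and the spread among HFD pools was wide. Of 26 transcription factors of neural progenitors 7 were lower (26.9%, against 17.3% of all genes) and 0 higher (median -0.35). The lower ones included Nfia (-0.54), Nfib (-0.44), Otx2 (-0.86), Nkx2-1 (-0.54) and Six6 (-0.45). Their median enrichment in the IRΔTan pulldown was 1.21. Of all genes enriched there by 1 to 2, 42.8% fell and 1.15% rose (median -0.47), so the fall was not particular to these factors. In the input 9 of the 26 were higher and 0 lower. For 12 of them the change in the pulldown was below that in the tissue, and without NCD pool 3 the number called in the pulldown was 3.

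Genes of the ciliated ependymal cells, which share the ventricular wall with tanycytes, fell as well. Of 19 ependymal markers 11 fell (57.9%) and 0 rose (median -0.70), with 7 called without HFD pool 2 and 6 without HFD pool 3. Their summed level was 1340 to 1564 CPM on NCD and 697 to 1144 CPM on HFD. Their median enrichment in the IRΔTan pulldown was 4.44. Of all genes enriched there by 4 or more, 51.3% fell and 0 rose (median -0.75), so the fall was not particular to ependymal markers. Foxj1, the master regulator of motile cilia, had 232, 236 and 237 CPM in the NCD pools and 188, 104, 105.4 and 142 CPM in the HFD pools (log2 fold change -0.80, SE 0.19, adjusted P = 0.012 by edgeR). No HFD pool reached the lowest NCD pool, while in the input Foxj1 was higher on HFD (0.42, adjusted P = 0.026). Of 32 genes of the motile cilium 15 fell and 1 (Dnah1) rose, including the radial spoke genes Rsph1 (-0.78) and Rsph4a (-0.59), the dynein assembly factor Zmynd10 (-0.80) and the ciliogenic factor Rfx2 (-0.81). Without HFD pool 2 there were 9 lower and 1 higher, without NCD pool 1 there were 7 called in all, and Dnah1 had -0.04 with the length trend removed. Over the 32 cilium genes 46.9% fell, with a median change of -0.39 and a median enrichment of 3.22. Of all genes enriched by 3 to 4, 40.3% fell (median -0.67).

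Named next are genes enriched by at least 2 on the log2 scale in the IRΔTan pulldown, with at least 10 CPM in the higher group and the steepest changes. After Sat1 they included Ubd, a ubiquitin-like modifier induced by interferon, which had 104.8, 112 and 127 CPM on NCD and 68.4, 14.1, 30.6 and 29.3 CPM on HFD (log2 fold change -1.69, SE 0.40). Npy, a neuropeptide best known from AgRP neurons, was also enriched in that pulldown, by 3.54, and had 67.1, 64.3 and 34.2 CPM on NCD against 27.0, 9.68, 13.0 and 19.2 CPM on HFD. Its log2 fold change of -1.68 (SE 0.34) had no counterpart in the input (0.13, adjusted P = 0.44). Sprr2a2 (-1.80) and Plac9b (-1.73) were the remaining genes of this group, and Plac9b overlapped between the diets.

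The single riser of that group was Atg7, the activating enzyme of the autophagosome conjugation pathway. NCD pools 1 and 2 had 37.0 CPM each and NCD pool 3 had 191.6 CPM, and the HFD pools had 282, 207, 343 and 275 CPM. The log2 fold change was 1.64 with an SE of 0.54 (adjusted P = 0.038 by edgeR), and the call held in 2 of the 7 fits without 1 pool. The NCD pools thus differed among themselves by more than NCD pool 3 differed from the HFD pools. S100a6 (-1.66), a calcium-binding protein, Thrsp (-1.04), a lipogenic regulator, and the peroxiredoxin gene Prdx6 (-1.03) were other genes of high enrichment that fell.

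Against this, genes of the neuronal cytoskeleton rose with few exceptions. Of 29 genes for spectrins, ankyrins, intermediate filaments and related proteins 23 rose and 0 fell, with a median of 1.11. The list also holds Add2 and the microtubule-associated genes Map1a and Map2. Of 28 genes for microtubules and their motors 26 rose and 0 fell (median 1.05). These lists share members with the neuron markers below, Map2 and Tubb3 among them. With the length trend removed 21 of the 29 and 22 of the 28 rose. Nefm, the medium neurofilament chain, had 75.1, 58.5 and 79.4 CPM in the NCD pools and 188, 354.5, 248 and 236 CPM in the HFD pools (log2 fold change 1.85, SE 0.21, adjusted P = 0.0016 by edgeR). Nefh, the heavy chain, rose by the same 1.85. The beta spectrin gene Sptb rose by 2.08, with HFD pool 2 (108 CPM) far above the other HFD pools, and by 1.77 without that pool.

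Genes that were already abundant followed. Tubb4a, a neuronal and oligodendroglial beta tubulin, had 560.5, 446 and 788 CPM on NCD and 1472, 2777, 2201 and 1790 CPM on HFD (log2 fold change 1.78, SE 0.25). Map1a, which stabilizes dendritic microtubules, rose by 1.69, the dynein heavy chain gene Dync1h1 by 1.64, the axonal kinesin gene Kif1a by 1.52 and Nsf, the ATPase that recycles SNARE complexes, by 1.52. In Dync1h1 HFD pool 2 had 1232 CPM and the other HFD pools 315, 560.3 and 566 CPM. Further genes with the steepest rises were the scaffold genes Pakap (2.16) and Mapk8ip2 (2.08), Magee1 (1.94), the non-muscle myosin gene Myh10 (1.84), the actin-associated genes Nexn (1.82), Coro1a (1.73) and Mical3 (1.73), the gene model Gm4070 (1.81) and Bsn (1.71), a scaffold of the presynaptic active zone. Each of them was below the input in the IRΔTan pulldown.

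Synaptic genes showed the same direction. Of 31 synaptic vesicle genes 26 rose and 0 fell (median 0.93), among them Syn1 (1.34), a phosphoprotein of the vesicle surface, and Dnm1 (1.45), the endocytic dynamin. Of 26 glutamate and GABA receptor genes 22 rose and 0 fell (median 0.60; 13 without NCD pool 2), and of 38 ion channel and pump genes 25 rose and 0 fell (median 0.67). With the length trend removed 12 of the receptor genes and 14 of the channel genes rose. In the input 2 of the 38 channel genes were higher and 20 lower, so the change differed between the fractions for 29 of them. The neuron markers themselves rose in 20 of 21 cases (median 0.83), for instance Map2, the dendritic microtubule protein, with 506, 436 and 496 CPM on NCD and 906, 945, 924 and 911 CPM on HFD (log2 fold change 0.94, SE 0.10). The HFD pools were close together in this gene, HFD pool 2 included.

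Markers of other glia moved in part. Of 15 oligodendrocyte markers 7 rose and 0 fell (median 0.84). Without HFD pool 2 their median was 0.50, and without NCD pool 1 the number called was 4. The myelin glycoprotein gene Mag rose by 1.35 and Cnp by 1.14, yet Mobp (0.09) did not pass the test. The summed level of the list overlapped, 568 to 1012 CPM on NCD and 821 to 1940 CPM on HFD. Of 13 microglia markers 8 rose and 0 fell (median 0.77). Csf1r, the receptor that microglia need to survive, had 6.13, 8.58 and 8.19 CPM on NCD and 13.6, 29.9, 20.9 and 18.8 CPM on HFD (log2 fold change 1.45, SE 0.26). The sum of the microglia markers was 69.6 to 76.2 CPM on NCD and 118 to 156 CPM on HFD. Astrocyte markers split, with Aldh1l1 (1.29) and Agt (1.04) higher and S100b (-0.66) and S1pr1 (-0.50) lower among 14 tested. Their summed level overlapped between the diets, at 2516 to 2653 CPM on NCD and 2501 to 3279 CPM on HFD. None of 5 endothelial markers passed the test.

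**Figure D3:**
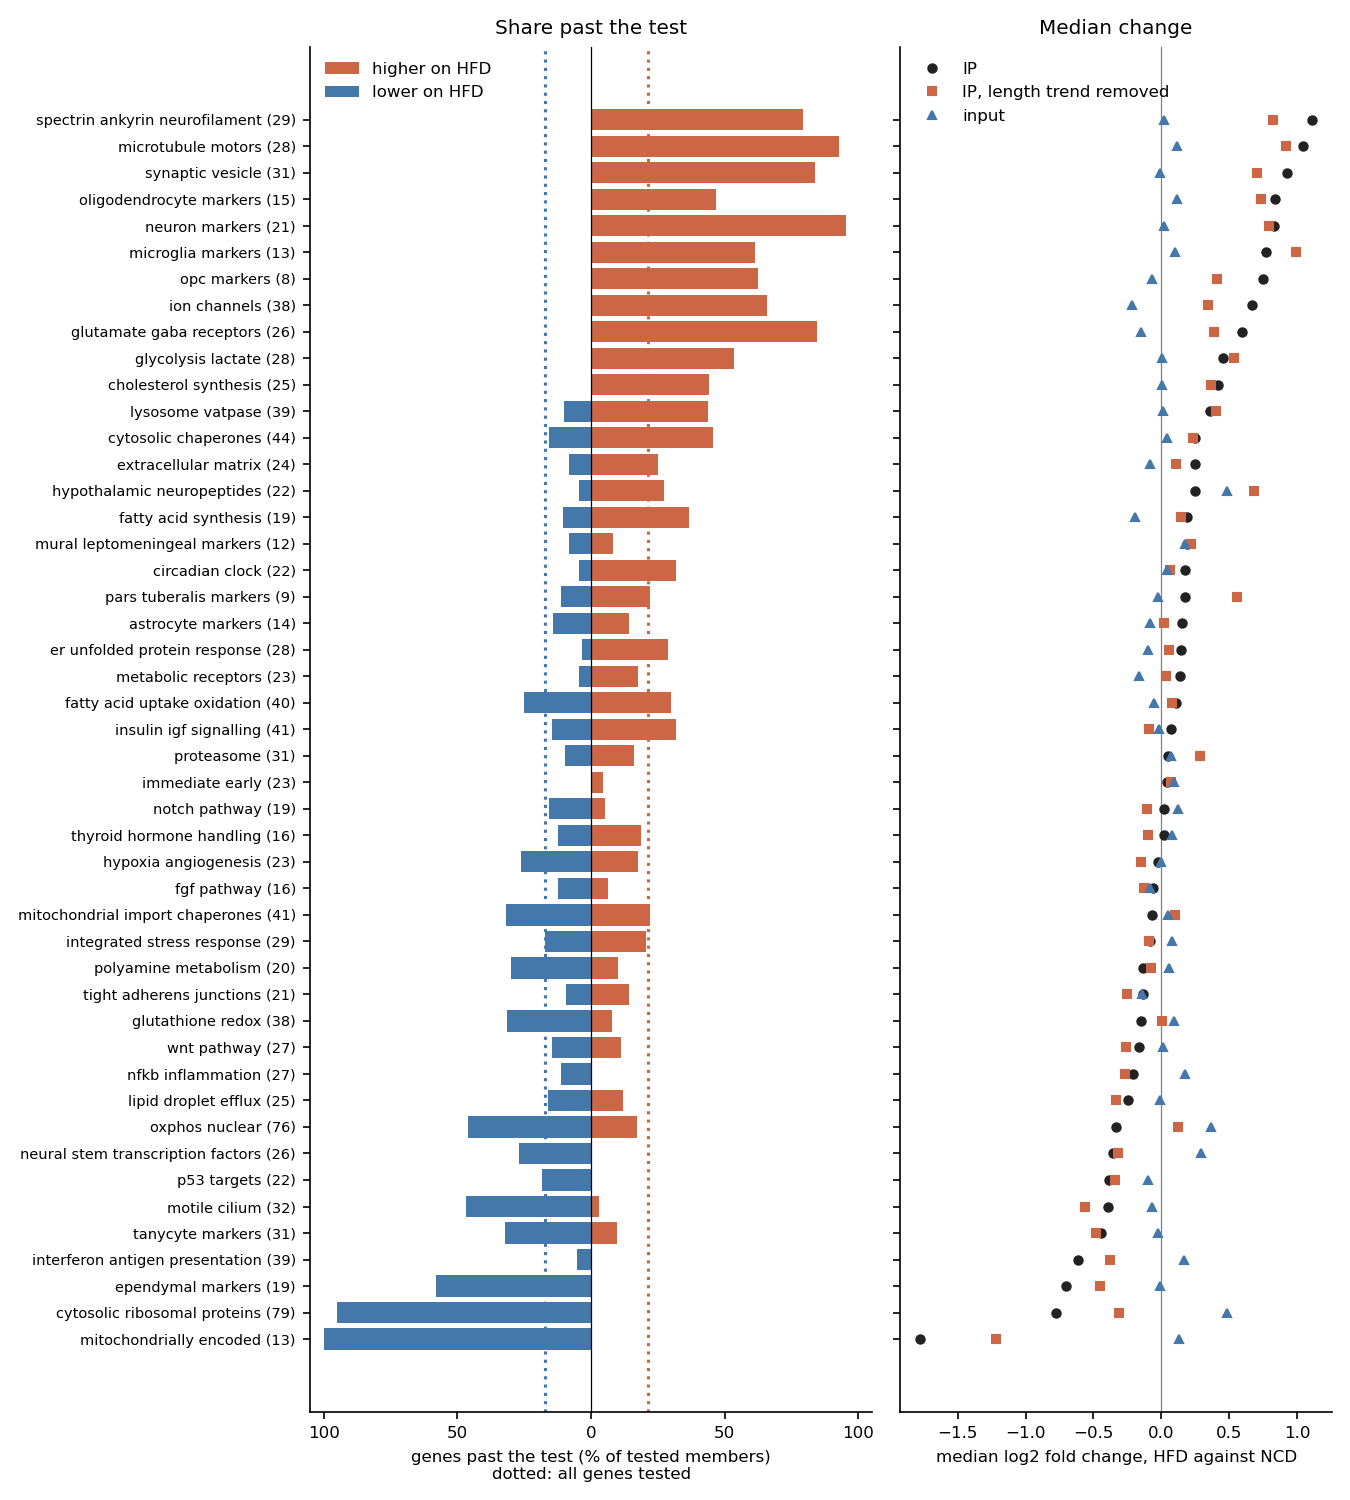
Left, percentage of the tested members of each gene list (number in brackets) that were higher (orange) or lower (blue) on HFD in the immunoprecipitation, with dotted lines at the percentages over all genes tested, 21.2% higher and 17.3% lower. Right, median log2 fold change of each list in the immunoprecipitation, in the immunoprecipitation with the length trend removed, and in the input. Cytoskeletal and synaptic lists stand at the top and ribosomal and mitochondrial ones at the bottom.

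Genes of the cytosolic ribosome itself moved in opposite directions in the fractions. Of 79 ribosomal protein genes 75 fell and 0 rose in the immunoprecipitation, with a median of -0.78, and 75 fell also without HFD pool 2. In the input 67 of the same 79 were higher on HFD and 0 were lower (median 0.49), against 16.8% higher and 14.3% lower among all 13346 genes tested there. The change in the immunoprecipitation was below that in the input for 77 of them, against 18.8% of all genes with a lower change. Rps14, a protein of the small subunit, had 102, 111 and 82.7 CPM in the NCD immunoprecipitations and 42.3, 31.1, 33.6 and 35.9 CPM in the HFD ones (log2 fold change -1.46, SE 0.14), while its input rose by 0.61. Rpl9 of the large subunit had 349, 341 and 336 CPM against 197, 166, 191 and 176 CPM (-0.91, SE 0.10), and 0.33 in the input. In both genes every HFD pool was below every NCD pool.

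Rpl39 (-1.68) and Rps4x (-1.15) fell in the immunoprecipitation and did not pass the test in the input. The 4 members that did not pass were Rpl27, Rpsa, Rpl7a and Rps12. These messages are short, and with the length trend removed 43 fell and 1 rose (median -0.31), so that the direction stayed and the number called dropped. The share of all counts that fell to ribosomal protein genes was 1.43% to 1.60% on NCD and 0.696% to 1.095% on HFD in the immunoprecipitation.

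**Figure D4:**
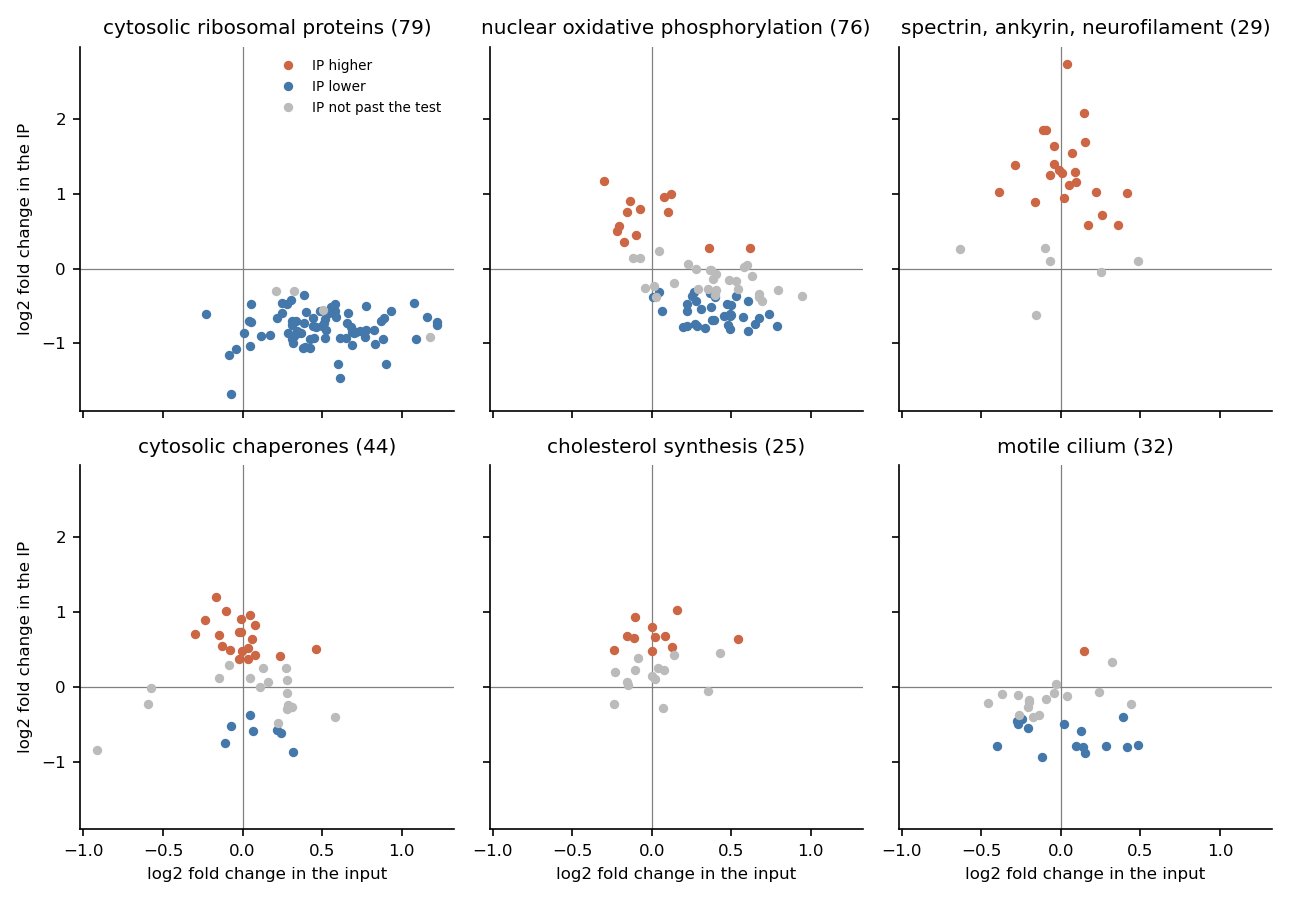
Log2 fold change of HFD against NCD in the immunoprecipitation (vertical) against that in the input (horizontal) for the members of 6 gene lists, 1 point per gene, coloured by the call in the immunoprecipitation. Of the 79 ribosomal protein genes 75 lie below 0 on the vertical axis as called lower, and 67 are called higher in the input.

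Genes of the respiratory chain went both ways. Of 76 nuclear genes of oxidative phosphorylation 35 fell and 13 rose, with a median of -0.33. Without NCD pool 1 the number called was 28 and without HFD pool 1 it was 56. The risers included core and catalytic subunits such as Ndufs1 (transcript of 2661 bases), the large iron-sulphur subunit of complex I, with 46.6, 42.5 and 60.7 CPM on NCD and 81.3, 144, 118 and 105.3 CPM on HFD (log2 fold change 1.17, SE 0.20). Uqcrc1 (0.99) of complex III and Atp5b (0.91) and Atp5a1 (0.80) of the ATP synthase rose with it. Small subunits fell, such as Ndufa1 (-0.77, transcript of 419 bases), Cox8a (-0.80) and Atp5e (-0.84). With the length trend removed the list turned, 29 genes were higher and 7 lower (median 0.13), and Ndufa1 (-0.02) and Cox8a (-0.17) no longer passed. In the input 53 of the 76 were higher and 6 lower.

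The 13 protein-coding genes of the mitochondrial genome, which cytosolic ribosomes do not translate, all fell (median -1.78), 7 of them with the length trend removed. The subunit gene mt-Co1 of cytochrome c oxidase had 1669, 915 and 1108 CPM on NCD and 285, 403, 134 and 286 CPM on HFD (log2 fold change -2.15, SE 0.33). In the IRΔTan pulldown it was depleted by 4.40. In the input 2 of the 13 genes were higher and 1, mt-Co1 itself (-0.54), was lower. The non-coding host gene Snhg11 fell by 2.42, and also in the input, by 1.42 (adjusted P = 3.7e-05 by edgeR). Lrrc17, which encodes a secreted leucine-rich repeat protein, fell by 3.45, and by 0.26 in the input. In the immunoprecipitation it had 21.7, 10.3 and 5.93 CPM on NCD against 1.95, 1.36, 0.760 and 0.530 CPM on HFD.

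Protein import and folding in mitochondria gave a mixed result. Of 41 genes 9 rose (22.0%) and 13 fell (31.7%), against 21.2% and 17.3% of all genes, with a median of -0.065. With the length trend removed 9 rose and 8 fell, and without NCD pool 1 there were 14 called. The matrix chaperone gene Hspa9 rose by 0.75 and the inner membrane protease gene Afg3l2 by 0.73, whereas Timm8a1 (-0.87), Tomm7 (-0.92) and Timm17b (-0.60), components of the import machinery, fell. Timm50, the receptor subunit of the inner membrane translocase, had 7.53, 6.46 and 7.07 CPM on NCD and 10.4, 9.29, 9.22 and 8.87 CPM on HFD. Its log2 fold change of 0.43 (SE 0.15) passed with an adjusted P of 0.041, and in none of the 7 fits without 1 pool (adjusted P 0.059 to 0.098).

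Cytosolic chaperones, which fold and refold proteins, mostly rose where they passed the test. Of 44 tested 20 rose and 7 fell (median 0.25). Hsp90aa1, the inducible cytosolic HSP90, had 1191, 1062 and 1251 CPM on NCD and 1922, 2428, 2305 and 2016 CPM on HFD (log2 fold change 0.89, SE 0.12), and fell in the input (-0.23, adjusted P = 0.0090). Hspa8, the constitutive HSP70, rose by 0.96, Hspa4 by 1.02, Hsph1, an HSP110 exchange factor, by 0.73, the co-chaperone gene Dnaja1 by 0.69, and Cct8 and Cct7, subunits of the chaperonin TRiC, by 0.91 and 0.64. The lower members were Dnajb1 (-0.59), Dnaja4 (-0.75), Dnajb2 (-0.38), Hspb6 (-0.87), Bag1 (-0.57), Bag3 (-0.62) and Cryab (-0.52), which include small heat-shock proteins and inducible co-chaperones. The stress-inducible Hspa1a and Hspa1b did not pass the test (-0.23 and -0.85).

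Hspd1 and Hspe1 encode HSP60 and HSP10, partners in the same folding chamber of the mitochondrial matrix, and lie head to head on chromosome 1 with 215 bases between their starts. They moved apart. Hspd1 had 220.1, 228 and 207 CPM on NCD and 273, 375, 363 and 300.1 CPM on HFD (log2 fold change 0.59, SE 0.13, adjusted P = 0.0091 by edgeR). Hspe1 had 79.9, 88.8 and 63.3 CPM against 59.12, 37.6, 59.04 and 53.2 CPM (log2 fold change -0.57, SE 0.17, adjusted P = 0.028), and with the length trend removed -0.04 (adjusted P = 0.81). In the input the signs were the reverse, -0.16 for Hspd1 and 0.40 for Hspe1, and both differences between fractions passed the test (adjusted P = 0.0012 and 0.0014).

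The sequence between those starts is shown because both genes share it while their pulldown moved in opposite directions, and the Dnaja1 stretch because it carries the same element. Reference sequence is from RefSeq, build GRCm38.p6, plus strand, 5′ to 3′. Capitals mark the letters GAANNTTC, the core of a heat-shock element, which reads the same on both strands. The Hspe1-Hspd1 stretch is chr1:55088053-55088082, with the capitals starting 84 bases before the Hspe1 start, and the Dnaja1 stretch is chr4:40722333-40722362.
Hspe1-Hspd1: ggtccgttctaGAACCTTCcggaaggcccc
Dnaja1: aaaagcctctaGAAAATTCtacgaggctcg
These letters were found in the 250 bases before the start of 10 of the 36 cytosolic chaperone genes that matched the reference table (27.8%), and of 2088 of its 27025 genes (7.73%). Of those 10, Dnaja1, Fkbp4 and Cct2 rose, Dnaja4 and Hspb6 fell, and Hspa1a, Hspa1b, Hspb1, Dnajb6 and Stub1 did not pass the test.

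Of 28 genes of the unfolded protein response and of folding in the endoplasmic reticulum (ER) 8 rose (28.6%) and 1 (Sec61b) fell (3.57%). The shares of all genes were 21.2% and 17.3%. The ER list had a median of 0.15, and 5 of its genes were called without HFD pool 3. Hspa5, the ER chaperone BiP, had 163, 164 and 143 CPM on NCD and 238, 295, 418 and 312 CPM on HFD (log2 fold change 1.01, SE 0.18), while in the input it was lower (-0.28). Hyou1 (0.72), Sel1l (0.73) and Canx (0.61) rose too, and Xbp1, Ern1 and Dnajb9, further genes of this response, did not pass the test (-0.36, -0.10 and -0.01). The integrated stress response, which couples amino acid supply to translation, went both ways. Of its 29 genes 6 rose (20.7%) and 5 fell (17.2%), close to the 21.2% and 17.3% of all genes. Asparagine synthetase, Asns, rose by 1.28 and the tRNA synthetase genes Aars (1.04), Gars (0.89) and Nars (0.81) with it. The transcription factor genes Atf5 (-0.98), Ddit3 (-0.72) and Cebpg (-0.29) fell. Ddit3 no longer passed with the length trend removed.

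Glycolysis breaks glucose down to pyruvate and lactate. Of 28 genes of glycolysis and lactate handling 15 rose and 0 fell, with a median of 0.45, and 17 rose with the length trend removed. Pkm, pyruvate kinase, had 313, 347 and 375 CPM on NCD and 619.6, 904, 787 and 692 CPM on HFD (log2 fold change 1.12, SE 0.15). Pfkp (1.14), Pfkm (1.16), Hk1 (1.05), Ldhb (1.02) and Gapdh (0.83) rose as well, and the glucose transporter gene Slc2a1 of the blood-brain barrier and of glia did not pass the test (-0.14). Of 39 genes of the lysosome and its proton pump 17 rose and 4 fell, including the pump subunit genes Atp6v1a (1.31) and Atp6v0a1 (1.17) and, in the other direction, Cd63 (-1.07).

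The lipogenic enzymes parted. Fasn, fatty acid synthase, had 153, 168 and 203 CPM on NCD and 383, 634, 544 and 443 CPM on HFD (log2 fold change 1.52, SE 0.19), and Acly, which supplies its acetyl-CoA, rose by 1.19 and Acaca, the first committed enzyme, by 0.77. Scd1, the stearoyl-CoA desaturase, had 95.7, 104 and 146 CPM against 58.7, 82.2, 64.6 and 89.8 CPM and fell by 0.64 (SE 0.19), and Thrsp fell by 1.04. Of 19 genes of fatty acid synthesis 7 rose and 2 fell. Among 40 genes of fatty acid uptake and oxidation 12 rose, such as Acsl4 (0.92) and Hadhb (0.58), and 10 fell, such as Fabp7 and the uncoupling protein gene Ucp2 (-0.76). Of 25 genes of lipid droplets and lipid efflux 3 rose (12%) and 4 fell (16%), with a median of -0.25. The shares of all genes were 21.2% and 17.3%. Cpt1a, which admits fatty acids to mitochondria, did not pass the test (0.08).

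Cholesterol synthesis genes rose in 11 of 25 cases and fell in 0 (median 0.42; 10 and 0 without HFD pool 2). Hmgcs1, the HMG-CoA synthase at the head of the pathway, had 109, 126 and 134 CPM on NCD and 163, 255, 237 and 199.9 CPM on HFD (log2 fold change 0.80, SE 0.16). Fdps (0.68), Nsdhl (0.65) and the regulator Srebf2 (0.64) rose, and Sqle (0.10) and Idi1 (0.02) did not pass the test. Hmgcs1 alone of the 18 matched members held the letters TCACCCCAC, a sterol regulatory element, in the 250 bases before its start on either strand, as did 150 of 27025 genes (0.555%). The stretch around it, chr13:119690204-119690232 of GRCm38.p6 on the plus strand, is printed to show that element in the gene described, with the element in capitals.
Hmgcs1: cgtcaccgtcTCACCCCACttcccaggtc

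Insulin signalling genes showed no single direction. Of 41 genes 13 rose and 6 fell (median 0.074), with the length trend removed 10 rose and 12 fell, and without NCD pool 2 there were 12 called. The receptor gene Insr itself had 42.6, 44.4 and 41.5 CPM on NCD and 45.3, 54.1, 52.7 and 52.3 CPM on HFD. The groups did not overlap, but the gene did not pass the test (0.25 on the log2 scale, SE 0.10, edgeR adjusted P = 0.064). It passed when the inputs shared the fit (0.23, adjusted P = 0.021), and with the length trend removed it had the opposite sign (-0.14, adjusted P = 0.20). The substrate genes Irs4 (0.69, SE 0.13) and Irs2 (0.73) rose, as did Mtor (1.29), Rictor (0.80) and Grb10 (0.93), an adaptor that restrains the receptor. Akt2, a kinase downstream of it, had 85.0, 122 and 92.9 CPM on NCD and 62.1, 41.5, 58.2 and 61.0 CPM on HFD (-0.85, SE 0.17), and Foxo1 (-0.47), Pik3r1 (-0.32) and Shc1 (-0.88) fell.

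Receptors for metabolic signals were read as a list of 23 genes. Nmbr, the receptor of neuromedin B, had 3.70, 2.87 and 3.49 CPM on NCD and 8.52, 5.28, 7.08 and 6.46 CPM on HFD (log2 fold change 1.03, SE 0.21). Nmur2, a receptor of neuromedin U, overlapped between the diets and did not pass the test (0.78, SE 0.38, adjusted P = 0.13 by edgeR). Of the 23 genes 4 rose (17.4%, against 21.2% of all genes), among them the prolactin receptor gene Prlr (1.11) and the calcitonin receptor gene Calcr (0.79). The receptor partner gene Ramp1 (-1.005) was the 1 that fell (4.35%, against 17.3% of all genes).

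Shares of genes called lower in the next lists compare with 17.3% of all genes. Of 38 genes of glutathione and redox defence 12 fell (31.6%) and 3 rose, the lower ones including Gpx1 (-1.16) and Gpx4 (-0.91), glutathione peroxidases, and Gstt1 (-1.06), whereas the regulator Nfe2l2 (-0.38) did not pass the test. Polyamine genes besides Sat1 that fell were Oaz1 (-0.93), the antizyme that limits polyamine synthesis, and Odc1 (-0.44), its target, with 6 lower (30.0%) and 2 higher of 20. For interferon response and antigen presentation the median was -0.61, yet 2 of 39 genes (5.13%), Ifitm2 (-0.76) and the immunoproteasome gene Psmb9 (-1.52), passed the test. There the HFD pools were far apart: the invariant chain gene Cd74 had 366, 75.7, 226 and 113 CPM and B2m, the shared light chain of class I molecules, 1020, 192, 782 and 319 CPM in HFD pools 1 to 4, against 333 to 618 and 798 to 1500 CPM on NCD. Of the regulators of NF-κB signalling, Nfkb1 (-0.61), Rela (-0.56) and Relb (-0.9998), fell and 0 genes rose among 27 (11.1% lower, 1 called without NCD pool 2), and of 22 p53 targets 4 fell (18.2%) and 0 rose, Bax (-0.996), Ccng1 (-0.71), Trp53inp1 (-0.59) and Mdm2 (-0.58).

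Neuropeptides are the peptide messengers of hypothalamic neurons. Of 22 hypothalamic neuropeptide genes 6 rose, the largest of them Hcrt (1.04), Scg2 (1.03) and Vgf (0.97), and 1 (Npy) fell, while the melanocortin precursor gene Pomc did not pass the test (0.17), and without NCD pool 2 there were 4 called. With the length trend removed 12 of the 22 rose and 1 fell, and their median went from 0.25 to 0.68. Of 22 clock genes 7 rose and 1 fell, with Nr1d1 (0.50) and Dbp (0.52) higher and Arntl (-0.34) lower, with the length trend removed 2 rose and 4 fell, and without NCD pool 1 there was 1 called. Only Nr4a2 (0.80) passed among 23 immediate early genes. Of 16 genes of thyroid hormone handling 3 rose (18.8%), among them the transporter gene Slc7a8 (0.78), and 2, Dio2 and Crym, fell (12.5%). The shares of all genes were 21.2% and 17.3%.

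Long and short messages separated across the whole table. When genes were divided into 10 equal classes by transcript length, the median log2 fold change in the immunoprecipitation rose in every step, from -0.48 in the shortest (median 957 bases) to 0.36 in the longest (median 8256 bases), with 2.23% of genes higher and 41.2% lower in the shortest and 46.8% and 5.57% in the longest. In the input it ran the other way, from 0.28 to -0.12. The order by enrichment was present among short and long messages alike. In the shortest of 3 length classes of equal size those enriched by at least 1 in the IRΔTan pulldown had a median of -0.63 and those depleted by at least 1 had 0.12, and in the longest class the medians were -0.40 and 0.60. RNA integrity values were not used here, and the part of RNA quality in this trend was not tested.

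**Figure D5:**
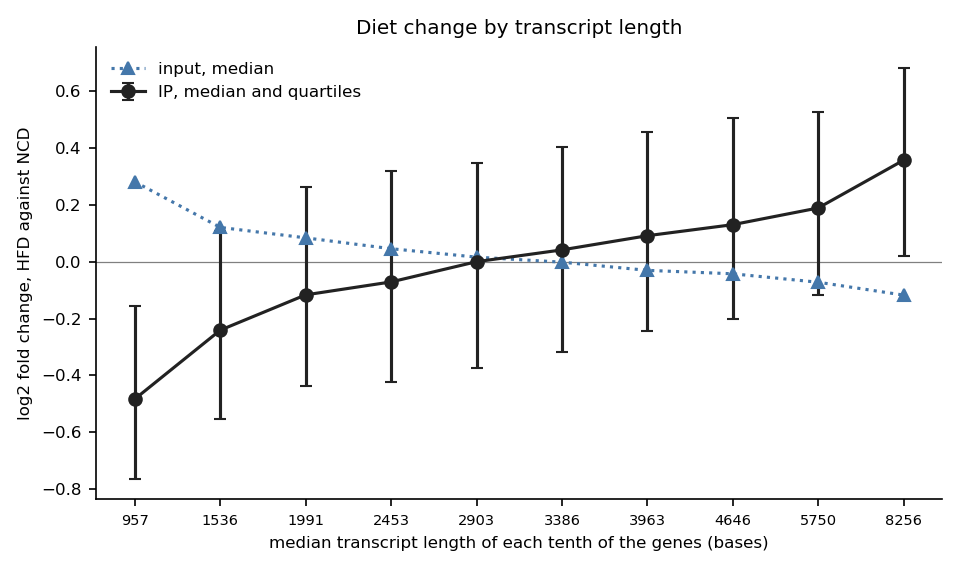
Median log2 fold change of HFD against NCD in 10 classes of genes of rising transcript length (median length in bases on the horizontal axis), for the immunoprecipitation with its quartiles and for the input. The medians ran from -0.48 to 0.36 in the immunoprecipitation and from 0.28 to -0.12 in the input.

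Among inputs, 2246 genes were higher and 1915 lower on HFD (31.2% of 13346), whereas scaling by library totals gave 1108 and 2242. The diet change differed between the immunoprecipitation and the input for 5439 of 13568 genes (40.1%), higher in the immunoprecipitation for 2889 and lower for 2550, and for 3471 and 1562 with library totals. Of the 1857 genes called in both fractions, 818 moved the same way and 1039 in opposite directions, and for all of these 1039 the difference itself passed the test. Among them were Rps14, Rpl9 and Oaz1, lower in the immunoprecipitation and higher in the input, and Hsp90aa1, Hspa5 and Ndufs1, higher in the immunoprecipitation and lower in the input.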

How the data were processed

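Ribosome-bound and input RNA of pooled arcuate nucleus and median eminence was preamplified (Ovation RNA-Seq V2) and sequenced. The submitters' processing notes name STAR and GRCm38.p6 and the paper names an nf-core pipeline, Salmon and GRCm38. The table deposited by the authors gives Salmon 0.14.1 estimated counts for 44674 genes, of which 28.0% of values were not whole and were rounded. A deposited table of the authors' own comparison holds log2 fold changes and adjusted p-values from DESeq2 1.30.0, and only its 13721 gene names were used. Library totals ranged from 29469000 to 59385000 counts over the 14 control libraries, so that depth limits mainly genes of few counts.

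Groups were taken from the sample labels. HFD and NCD immunoprecipitations were compared over genes with at least 10 counts in enough libraries (edgeR's default group rule) with TMM factors and the quasi-likelihood test of edgeR 4.0.16 (R 4.3.3), inputs likewise, and the difference between fractions as an interaction. Alternatives were other scalings and filters, DESeq2 1.42.0, shared fits, a replicate block, a covariate of Y-linked counts, removal of trends with length or GC content, and each pool left out. The steps were checked on 1 simulated set in which only a small share of genes was changed. There false calls exceeded the nominal rate with edgeR and more so with DESeq2, and small changes were mostly missed. In the real data 38.4% of genes were called, so these rates need not carry over. Immunoprecipitation and input of a pool came from 1 lysate, and their deviations correlated at 0.12 to 0.326, highest with the own input in 4 of 7 pools. Genes were named by rule: those the study names, the 15 largest changes per direction (at least 10 CPM, no overlap, called without each pool), 5 per direction with at least 200 CPM, up to 4 per list by P, 5 per direction with IRΔTan enrichment of at least 2, and list members described with their count. The members and lists were chosen with earlier results of these data known. Of the chaperone list 36 and of the cholesterol list 18 members matched the RefSeq promoter table. Some list members are counted with their list but not reported by name here.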

Additional observations from a re-analysis of the deposited data

Results flagged for a closer look

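In a few genes 1 HFD immunoprecipitation lay far from the other 3 by Dixon's test at 95%, which also marks a small share of groups by chance. It was run on the 220 named genes and on library measures, so that a few flags arise by chance alone. HFD pool 2 was far above the others for Sptan1 (1325 CPM), Mical3 (74.98 CPM) and Sptb (108 CPM). HFD pool 1 stood apart for H2-DMb2, a class II antigen-loading gene, with 6.66 CPM. HFD pool 4 was high for Cga, the glycoprotein hormone alpha chain of the pituitary, with 9.96 CPM.

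For 1039 genes the immunoprecipitation and the input were called in opposite directions. A test of the difference passed for all of them, which such calls make all but certain. By that test 77 of 79 ribosomal protein genes had the lower change in the immunoprecipitation.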

How the results depend on the processing

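The number of genes called in the immunoprecipitation (5174) stayed within 1.5 times under other scalings, filters, DESeq2, shared fits and trend removal (4660 to 7210), and at 3727 to 5607 with each pool left out. With Y-linked counts as a covariate it was 6227. HFD and NCD samples share only a replicate number: same-number pools correlated at -0.312 to -0.104, and the replicate block gave 2165 genes (1341 higher, 824 lower). A minimum change of 1 left 786. In the input (4161) a fit over 14 libraries gave 1539, and leaving out pools 3086 to 4371. The difference between fractions (5439) gave 4241 to 5684 without each pool. Genes enriched in the IRΔTan pulldown had a median of -0.37, and -0.56 and -0.68 at an enrichment of at least 1 and 2; without each pool it was -0.43 to -0.32 and with the length trend removed -0.27, both added after the data had been seen.

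With the length trend removed the balance of calls turned for insulin signalling (22 called, 10 higher), mitochondrial import (17, 9 higher), oxidative phosphorylation (36, 29 higher), junctions (7, 2 higher) and clock genes (6, 2 higher), and Dnah1 (-0.038) and Insr (-0.14) changed sign. It turned for hypoxia genes with library totals (8 called). With single pools left out it turned in at least 1 fit for lipid droplet genes (3 to 10 called), the proteasome (3 to 8), the Wnt pathway (4 to 9), junctions (3 to 5) and hypoxia genes (6 to 10). Apart from the length trend, whose removal is the alternative itself, the cause was not tested. Of 220 named genes 48 were no longer called under the replicate block, 21 with the length trend removed, and 3 to 25 with 1 pool left out.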
